A study of Rattus norvegicus with 6 samples.

Results

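The constitutive proteasome subunits were followed in RNA from knee articular cartilage of rats whose knee had been compressed repeatedly. The members were the rows of the deposited count table whose gene name begins with Psma, Psmb, Psmc or Psmd and a digit, with the interferon-inducible Psmb8, Psmb9 and Psmb10 left out. This gave 37 rows of 26981 features. Of these, 16 encode subunits of the core particle, 17 encode subunits of the regulatory particle, 3 (Psmd5, Psmd9 and Psmd10) encode chaperones that assemble the regulatory particle, and 1, Psmc3ip, shares the prefix but encodes a meiotic recombination factor and no subunit. The table has no row named Psma3. Its row Psma3l carries a symbol that RefSeq lists as an older name of Psma3, and it is treated here as Psma3.

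The animals were male SD rats of WT genotype, 6 weeks old at the start, and the study held 70 rats in 7 groups. RNA of the right knee cartilage was sequenced from the blank control and from 1 loading group, and each gave 3 libraries. For loading, the right knee and ankle were compressed axially under anaesthesia every 2 days for 4 weeks, with 40 cycles a session, each cycle lasting 10 s with 5 N for 9 s and a peak of 20 N for 0.5 s. Nothing in the labels ties a library to a rat of its own, so p-values here reflect library-to-library spread only, which could be technical. The loaded libraries are labelled only as excessive mechanical load, and their force and duration come from the study's design text.

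The proteasome is the protease that degrades proteins tagged with ubiquitin. Its core particle is a barrel of stacked rings, in which α subunits form the outer rings and the gate and β subunits form the inner rings that hold the proteolytic sites. The regulatory particle caps the barrel, and its base of ATPases unfolds substrates while its lid removes the ubiquitin chains. When proteasome activity is limiting, the transcription factor Nfe2l1 is known to induce subunit genes together. In cartilage, chondrocytes depend on protein quality control because they secrete large amounts of matrix.

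Library totals ran from 34527264 to 40332904 counts in control and from 28435307 to 33616096 in loaded libraries, so every control library was deeper. Log2 CPM correlated at 0.972 to 0.988 within a group and 0.955 to 0.959 between groups. Transcripts of other tissues were present beside those of cartilage. The 10 chondrocyte markers took 0.152% to 0.166% of counts in control and 0.231% to 0.253% in loaded libraries, whereas the 12 matched erythroid markers took 13.7% to 14.8% and 13.0% to 14.1%. The 15 matched skeletal muscle markers stood at 0.885% to 0.910% and 2.21% to 2.23%, the 11 neutrophil markers at 4.55% to 4.88% and 3.29% to 3.88%, and the 12 cell cycle genes at 0.195% to 0.205% and 0.158% to 0.172%. The 6 osteoblast markers stood at 0.206% to 0.216% and 0.503% to 0.530%, and the 6 adipocyte markers at 0.0206% to 0.0224% and 0.0105% to 0.0121%. No marker in these lists was at 0 in all libraries. At an adjusted p under 0.05, 17.9% of all genes tested rose and 18.0% fell, 35.8% together. Of the tested markers, 15 of 15 muscle and 6 of 6 osteoblast genes rose, and 12 of 12 cell cycle and 6 of 6 adipocyte genes fell. Among 10 chondrocyte genes 5 rose and 1 fell, and among 10 neutrophil genes 2 rose and 7 fell. Among 12 erythroid genes 1 rose and 3 fell, close to the share over all genes. The part of these differences in the proteasome values was not tested. In such mixed bulk RNA, fewer cells of a type and less RNA per cell cannot be told apart.

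Transcripts of the constitutive proteasome were slightly lower in loaded knees, with a minority of subunits moving the other way. Of 37 members 35 passed the count filter, with 124 to 16416 counts per library, and 14 of them fell (40.0%) and 3 rose (8.57%) past the 0.05 threshold of the adjusted p (edgeR quasi-likelihood test, Benjamini-Hochberg). Over all 16447 genes tested 35.8% changed, 18.0% lower and 17.9% higher. The median log2 fold change of the members was -0.10, against 0.0039 for all genes tested. The 3 loaded libraries lay entirely on one side of the 3 control libraries for 19 of 35 members (54.3%), 15 below and 4 above, where 47.9% of all genes tested showed such a gap. No member changed 2-fold. The falls that passed ranged from 8.12% to 26.0% and the rises from 19.0% to 22.0%.

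The count of falls depended on how libraries were scaled. With library totals in place of TMM factors, 8 members fell and 4 rose. The median of the members was then -0.030, against 0.079 for all genes tested. Over all genes that setting made 63.3% of the calls rises, against 49.9% with TMM. Rises and falls were both called under either scaling, and 8 falls and 3 rises passed in every alternative fit.

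**Figure D1:**
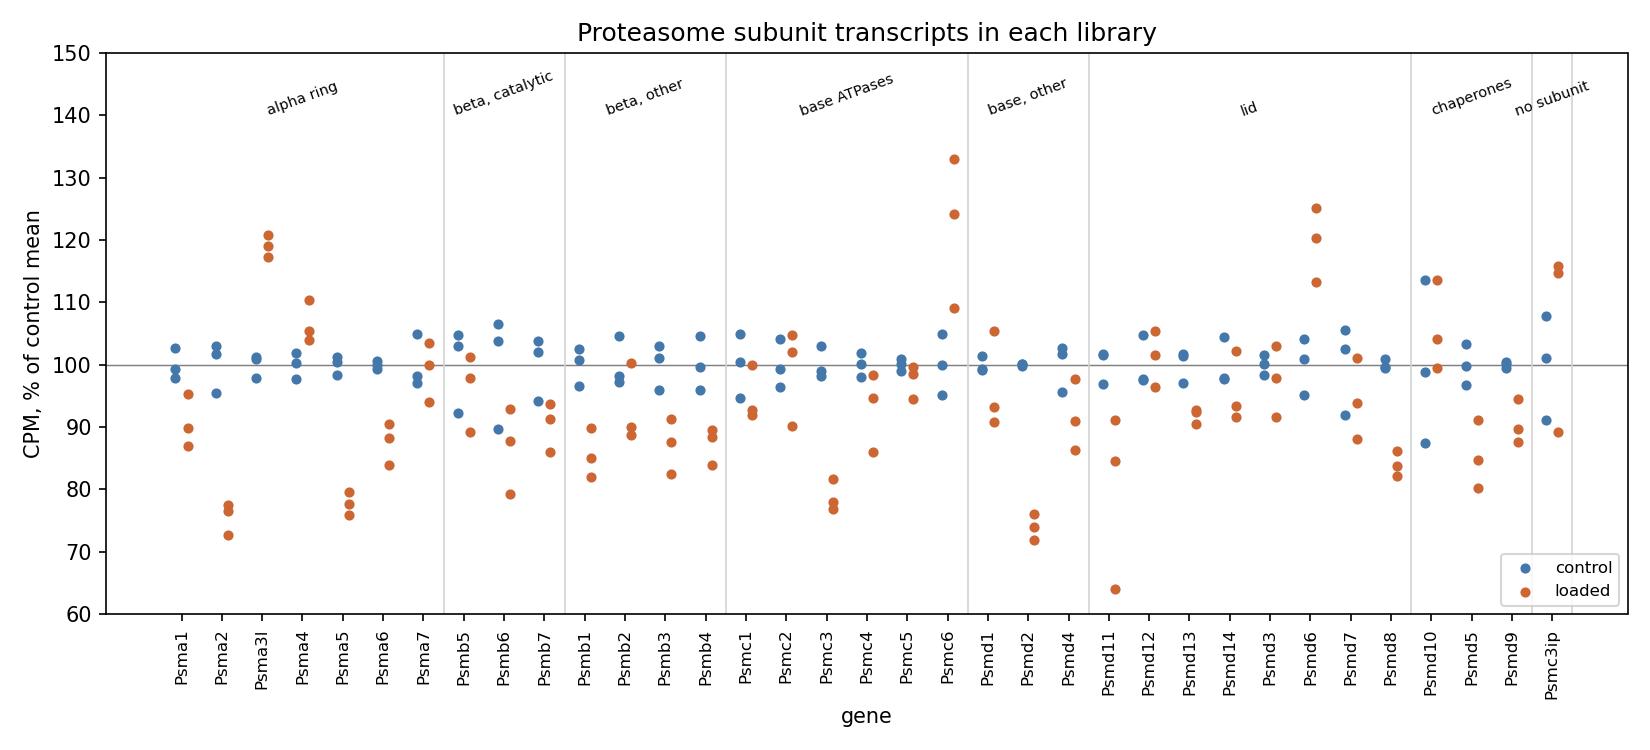
CPM of each tested member in each library as a percentage of the control mean (y axis), with genes on the x axis grouped by role; blue points are the 3 control and orange points the 3 loaded libraries. Psmd2, Psma2, Psma5 and Psmc3 sit well below their controls in all loaded libraries, whereas Psma3l, Psmc6 and Psmd6 sit above.

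Falls outnumbered rises in the core, and calls among the regulatory members were about as frequent as among all genes. A difference between the particles was not tested. Of 14 tested core members 9 fell (64.3%, against 18.0% of all genes) and 1 rose, with a median log2 fold change of -0.17. The summed core level went from 2411 ± 74.9 to 2196 ± 61.96 CPM (SD, n = 3 each), and the lowest control library (2331 CPM) was above the highest loaded library (2236 CPM). Among the regulatory members with the chaperones, 5 of 20 fell (25.0%, against 18.0% of all genes) and 2 rose, with a median of -0.08. With library totals 3 fell and 2 rose. Their summed level went from 2128 ± 36.6 to 1963 ± 30.4 CPM. As in the core, the lowest control library (2095 CPM) was above the highest loaded library (1984 CPM). As a share of all counts, which amounts to scaling by library totals, the core was below every control library in all loaded libraries (0.223% to 0.229% against 0.231% to 0.238%), while the regulatory members overlapped (0.198% to 0.204% against 0.203% to 0.210%).

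In the α ring, 4 of 7 tested subunits fell and 1 rose, where 18.0% of all genes tested fell and 17.9% rose. Psma2, the α2 subunit, stood at 142, 133 and 144 CPM in the control libraries and at 102, 107 and 108 CPM in the loaded libraries. All loaded values were below all control values, a fall of 24.4% (log2 fold change -0.40 ± 0.0498 SE, edgeR adjusted p = 1.51e-05). Psma5, the α5 subunit, stood at 94.6, 95.5 and 92.7 CPM in control and 71.5, 74.9 and 73.2 CPM in loaded libraries. The groups were again apart, with a fall of 22.3% (edgeR adjusted p = 2.88e-05). Psma6, the α1 subunit, fell from 236, 234 and 237 CPM to 198, 208 and 213 CPM (edgeR adjusted p = 0.00235). Psma1, the α6 subunit, moved by -0.14 (edgeR adjusted p = 0.0384), a call lost with upper-quartile scaling, with library totals and without any library except loaded 1.

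The α7 subunit Psma3 (row Psma3l) went against its ring. It stood at 151, 150 and 146 CPM in control and 180, 175 and 178 CPM in loaded libraries. The loaded values were all higher, a rise of 19.0% (log2 fold change 0.25 ± 0.0424 SE, edgeR adjusted p = 0.000284). The ratio of Psma3l to Psma2 counts within a library, which no scaling can move, was 1.06, 1.13 and 1.01 in control and 1.77, 1.64 and 1.64 in loaded libraries. This pair was picked after its values were seen, so the gap is a description. From counts and FPKM the gene model behind the Psma3l row is 2.36 times as long as the median member's, and RefSeq lists 2 pseudogenes of Psma3, so its reads may include those of related sequences. The other 2 tested α subunits were not called. Psma4 (α3) had a log2 fold change of 0.09 with a 95% interval to 0.18, and its 3 loaded libraries lay above its 3 controls (117, 118 and 124 against 114, 110 and 113 CPM). Psma7 (α4) had -0.01 (-0.11 to 0.08).

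The tissue-specific core forms were close to absent. Psma8, the α subunit of testis proteasomes, had 2 counts in loaded 1 and 0 in the other 5 libraries. Psmb11, the β subunit of thymic cortical epithelium, had 0 counts in all 6. A count of 0 allows up to 0.0744 to 0.106 CPM at these depths (3 counts over library totals without TMM scaling, counting error only).

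The β ring held 5 of the core's falls and no rise among 7 tested subunits, where 18.0% of all genes tested fell and 17.9% rose. Of its 3 catalytic subunits 2 were called lower, neither in every alternative fit. Psmb5, which carries the chymotrypsin-like site, stood at 154, 136 and 151 CPM in control and 131, 149 and 144 CPM in loaded libraries. These groups overlapped, and the interval of the log2 difference ran from -0.17 to 0.06 (edgeR adjusted p = 0.502). Psmb6, with the caspase-like site, stood at 106, 91.3 and 108 CPM and at 80.7, 89.4 and 94.5 CPM. The groups overlapped, and the fall of 13.4% (edgeR adjusted p = 0.0438) lost its call in 8 of 15 alternative fits. Psmb7, with the trypsin-like site, stood at 173, 157 and 170 CPM and at 143, 156 and 152 CPM. The groups were only just apart, and the call (-0.15, edgeR adjusted p = 0.0358) was lost with library totals, with the replicate block and without control 1, control 3, loaded 1 or loaded 3.

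The non-catalytic β subunits, which have no active site, held 3 falls among 4 genes, against 18.0% lower over all genes tested. Psmb1 (β6) stood at 303, 285 and 297 CPM in control and 242, 265 and 251 CPM in loaded libraries. The groups were apart, with a fall of 14.4% (edgeR adjusted p = 0.00109). Psmb4 (β7), the most abundant subunit transcript, fell from 441, 404 and 420 CPM to 354, 373 and 378 CPM (edgeR adjusted p = 0.00224). Both calls held in every alternative. Psmb3 (β3) fell from 134, 125 and 131 CPM to 107, 114 and 119 CPM (edgeR adjusted p = 0.00752) and missed the threshold with library totals (adjusted p = 0.0792). RefSeq lists 7 pseudogenes of Psmb3, more than of any other member. Psmb2 (β4) was not called (-0.10, interval -0.22 to 0.01).

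**Figure D2:**
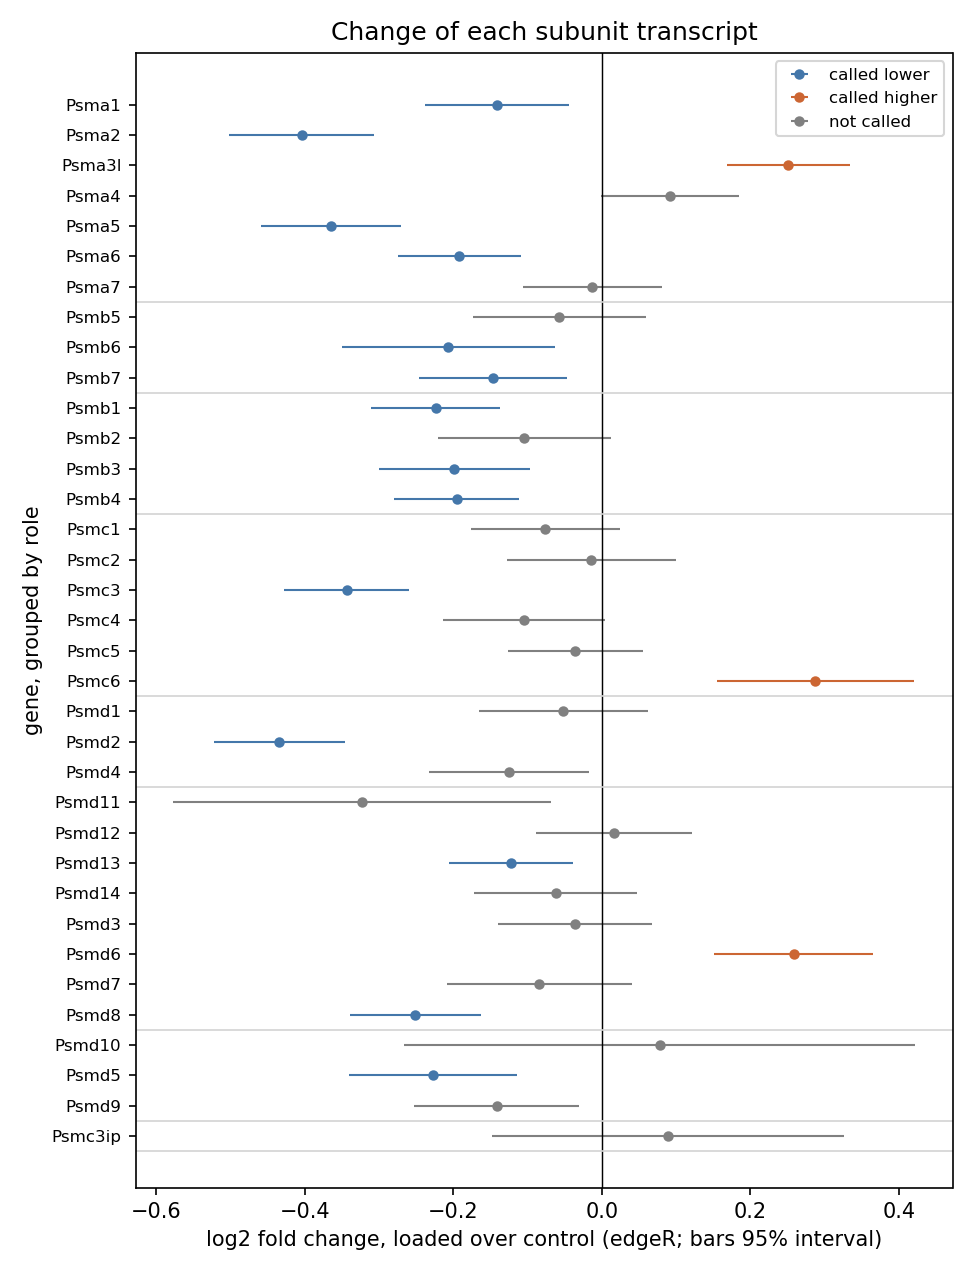
Log2 fold change of loaded over control for the 35 tested members (x axis), grouped by role from the α ring at the top to Psmc3ip at the bottom; points are edgeR estimates, bars 95% intervals, and colours mark members called lower, called higher or not called. Values run from -0.43 for Psmd2 to 0.29 for Psmc6.

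Among the 6 ATPases of the base, 1 fell, 1 rose and 4 were not called, again close to the 35.8% called over all genes. Psmc3, the Rpt5 ATPase, stood at 243, 231 and 233 CPM in control and 181, 192 and 184 CPM in loaded libraries. All loaded values were lower, a fall of 21.2% (log2 fold change -0.34 ± 0.0429 SE, edgeR adjusted p = 1.76e-05). Psmc6, the Rpt4 ATPase of the same ring, stood at 93.9, 85.2 and 89.5 CPM and at 97.6, 119 and 111 CPM. The loaded values were all higher, with loaded 1 close to the controls, and the rise was 22.0% (log2 fold change 0.29 ± 0.0677 SE, edgeR adjusted p = 0.00443). Within a library the ratio of Psmc6 to Psmc3 counts was 0.379 ± 0.00996 (SD, n = 3) for control and 0.587 ± 0.0426 (SD, n = 3) for loading, a pair chosen after its values were seen. The other ATPases Psmc1, Psmc2, Psmc4 and Psmc5 had log2 fold changes of -0.08, -0.01, -0.10 and -0.04, and each overlapped between groups.

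Of the other base subunits, Psmd2 and Psmd4 bind ubiquitin or its carriers. Psmd2 (Rpn1), the scaffold that docks shuttle receptors, showed the largest fall of the members. It stood at 152 CPM in each control library and at 116, 109 and 113 CPM in the loaded libraries. The controls were nearly equal and the gap was wide, a fall of 26.0% (log2 fold change -0.43 ± 0.045 SE, edgeR adjusted p = 2.62e-06). Psmd1 (Rpn2), the other large scaffold, was at -0.05 (interval -0.17 to 0.06), and the ubiquitin receptor Psmd4 (Rpn10) at -0.12 (edgeR adjusted p = 0.0952).

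In the lid 2 of 8 subunits fell and 1 rose, a share of calls close to the 35.8% of all genes tested. Psmd8 (Rpn12), a late-joining lid subunit, stood at 137, 139 and 137 CPM in control and 113, 115 and 119 CPM in loaded libraries. The fall of 16.0% was larger than the spread within either group (edgeR adjusted p = 0.000469). Psmd6 (Rpn7), a structural lid subunit, stood at 79.4, 82.0 and 74.9 CPM and at 94.8, 98.5 and 89.3 CPM. It rose by 19.6% with separate groups (log2 fold change 0.26 ± 0.0548 SE, edgeR adjusted p = 0.0018). Psmd13 (Rpn9) moved by -0.12 (edgeR adjusted p = 0.0372), a call lost in 7 of 15 alternative fits.

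Psmd11 (Rpn6), which clamps the lid to the core, was spread widely among the loaded libraries. It stood at 90.7, 90.9 and 86.5 CPM in control and at 81.5, 57.3 and 75.5 CPM in loaded libraries, so that loaded 2 was far below the others. The log2 fold change was -0.32 ± 0.13 SE (edgeR adjusted p = 0.111). It passed without loaded 2 (-0.19, edgeR adjusted p = 0.0238) and also without loaded 1 (-0.43, edgeR adjusted p = 0.028). With all libraries it was called by DESeq2 (-0.32, adjusted p = 0.00294) and by limma-voom (adjusted p = 0.03). The authors' deposited table gave Psmd11 a log2 fold change of -0.32 at a false discovery rate of 0.00323. The deubiquitinase Psmd14 (Rpn11) and the lid subunits Psmd3, Psmd7 and Psmd12 ranged from -0.08 to 0.02 and were not called.

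Of the 3 assembly chaperones only Psmd5 passed, where 35.8% of all genes tested did. It stood at 71.7, 74.2 and 69.5 CPM in control and 57.6, 60.8 and 65.5 CPM in loaded libraries, a fall of 14.6% with separate groups (edgeR adjusted p = 0.00612) that missed the threshold with library totals (adjusted p = 0.0655). Psmd9 was at -0.14 (edgeR adjusted p = 0.0669), and Psmd10 (gankyrin), the least abundant tested member, at 0.08 with an interval of -0.27 to 0.42. Psmc3ip, the row that is no subunit, was at 0.09 (interval -0.15 to 0.33).

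The authors' deposited table listed 35 of the members, 11 lower and 3 higher at a false discovery rate under 0.01. None reached the 2-fold change that the authors' deposited table required for a call, and log2 fold changes there ran from -0.43 to 0.29.

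Levels were compared between genes in FPKM, which the authors computed per length and which is not TMM-scaled. Core transcripts were more abundant than those of the regulatory members, with a median over genes of 145 FPKM (42.5 to 457) against 49.9 FPKM (7.08 to 132) in control. Psmb4 led at 457 ± 13.2 FPKM (SD, n = 3) without and 425 ± 13.4 FPKM (SD, n = 3) with loading. Psmb1 followed at 252 ± 3.05 and 230 ± 4.48 FPKM. Of the neighbouring pairs in the control order, 16 overlapped between libraries, for example Psma6 and Psma7, both at 224 FPKM, so their order is not resolved. Psmd2 moved from rank 24 to rank 29, Psma5 from 15 to 19 and Psmc6 from 30 to 26. Summed core over summed regulatory particle FPKM, without the chaperones, was 2.14, 2.05 and 2.17 in control and 2.00, 2.06 and 2.06 in loaded libraries, and these groups overlapped.

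**Figure D3:**
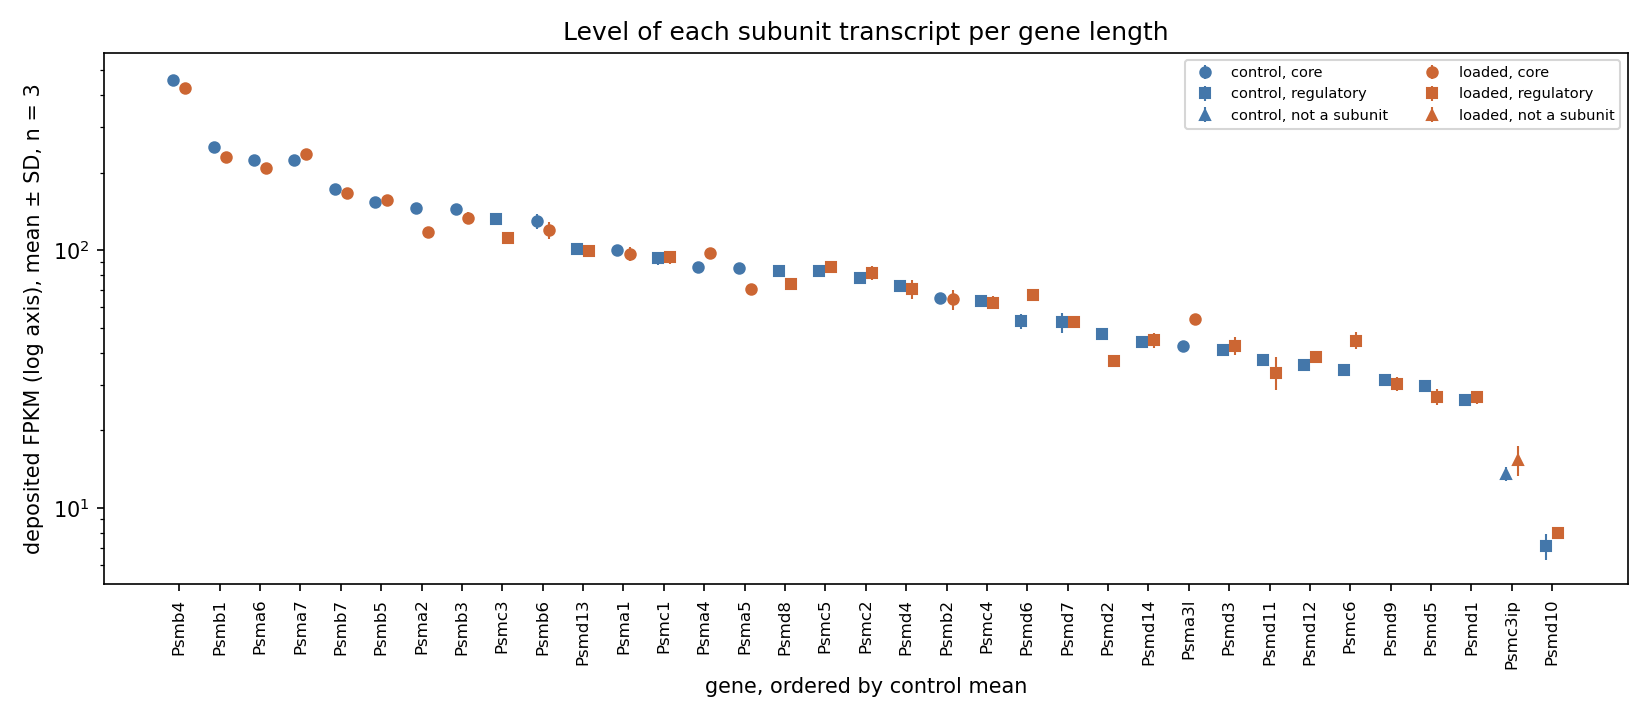
Deposited FPKM of the 35 tested members (y axis, log scale) in order of the control mean (x axis); points are means and bars SD of 3 libraries, blue for control and orange for loaded, circles for core members, squares for regulatory members and triangles for Psmc3ip. Psmb4 stands at 457 FPKM at one end and Psmd10 at 7.08 FPKM at the other.

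The inducible subunits, which replace the catalytic β subunits in immunoproteasomes, gave a matched comparison within each library. The FPKM ratio of Psmb10 to Psmb7 was 0.477, 0.478 and 0.495 in control and 0.355, 0.328 and 0.362 in loaded libraries, as Psmb10 fell by 35.2% (log2 fold change -0.63 ± 0.0572 SE, edgeR adjusted p = 6.96e-07). The ratios of Psmb8 to Psmb5 (0.778 ± 0.0407 and 0.755 ± 0.0445) and of Psmb9 to Psmb6 (0.717 ± 0.0302 and 0.746 ± 0.0746, SD, n = 3 each) overlapped. Psmb9 itself moved by -0.16 (edgeR adjusted p = 0.0367), a call lost in 7 of 15 alternative fits, and Psmb8 by -0.11 (edgeR adjusted p = 0.0824).

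Genes that control or serve the proteasome were read from related lists with 51 rows, of which 50 were tested. Of these 7 rose and 10 fell, with a median of -0.04, a share of calls near the 35.8% of all genes. In the list of CNC transcription factors and their partners, 1 rise and 1 fall were called among 6 tested genes, also near that share. Nfe2l1, which induces subunit genes, stood at 18.3, 22.7 and 19.0 CPM in control and 32.9, 26.8 and 29.8 CPM in loaded libraries. It rose by 49.0% with separate groups (log2 fold change 0.58 ± 0.0998 SE, edgeR adjusted p = 0.000388). Nfe2l2, the regulator of antioxidant genes, stood at 72.3, 75.4 and 72.8 CPM and at 52.7, 52.4 and 49.0 CPM. It fell by 30.1% with separate groups (log2 fold change -0.52 ± 0.0527 SE, edgeR adjusted p = 2.19e-06). Neither call was lost in any alternative. Of the other members of that list, Keap1, Maff, Mafg and Mafk were not called, and Nfe2l3 was below the count filter.

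**Figure D4:**
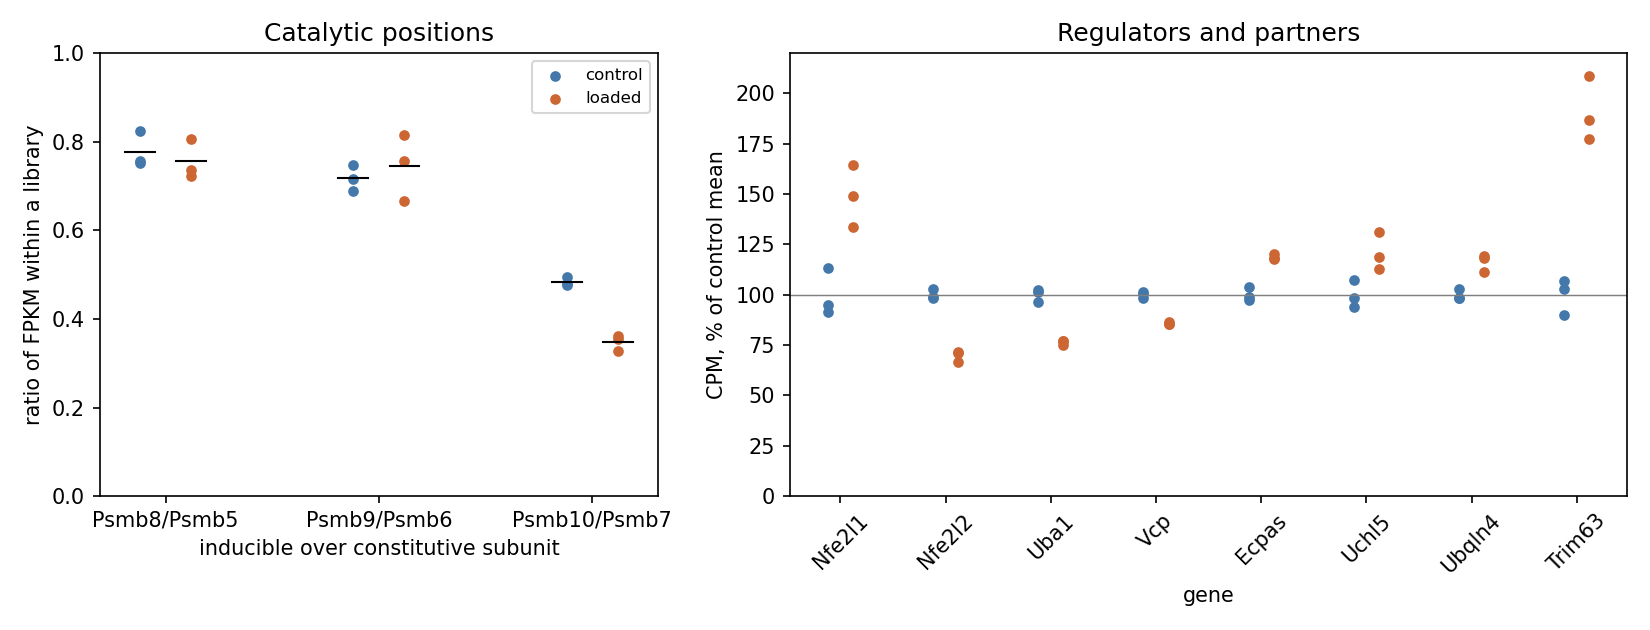
Left, the FPKM ratio of each inducible catalytic subunit to its constitutive counterpart in each library (points, with black lines at group means); right, CPM as a percentage of the control mean for 8 related genes, blue for control and orange for loaded libraries. The Psmb10 to Psmb7 ratio and Nfe2l2 are lower and Nfe2l1 and Trim63 higher in all loaded libraries.

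Of the genes for ubiquitin and its activation 2 of 6 tested rows fell, as did 2 of 6 genes of the Vcp pathway, and of 6 shuttle receptors 1 fell and 1 rose. In each list 2 of 6 were called, close to the 35.8% of all genes. The ubiquitin-activating enzyme Uba1 fell from 144, 151 and 152 CPM to 114, 112 and 115 CPM (log2 fold change -0.39, edgeR adjusted p = 9.95e-06). Vcp, the ATPase that extracts ubiquitinated proteins, fell from 335, 338 and 329 CPM to 285, 289 and 286 CPM (edgeR adjusted p = 0.000284), and its membrane cofactor Faf2 moved by -0.37 (edgeR adjusted p = 0.0035). In each case the loaded libraries lay below the controls. Of the shuttle receptors, Ubqln4 rose by 0.22 (edgeR adjusted p = 0.00313), whereas Rad23b moved by -0.16 (edgeR adjusted p = 0.0455), a call lost in 7 alternative fits.

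Among the 9 tested partners of the regulatory particle, 2 rose, 2 fell and 5 were not called, where 35.8% of all genes tested were called. The proteasome adaptor Ecpas rose from 101, 107 and 102 CPM to 122, 122 and 124 CPM (edgeR adjusted p = 0.000786), and the deubiquitinase Uchl5 rose by 0.27 (edgeR adjusted p = 0.00903; adjusted p = 0.0651 without control 1). Zfand2a, a stress-induced binding partner, fell by 0.43 on the log2 scale (edgeR adjusted p = 0.00668), and the ligase Ube3c moved by -0.16 (edgeR adjusted p = 0.0378). None of the 5 core assembly factors (Psmg1 to Psmg4 and Pomp) and none of the 5 activators and inhibitors (Psme1 to Psme4 and Psmf1) was called. Of 4 ubiquitin ligases of muscle 3 rose, where 17.9% of all genes tested did. Trim63 went from 12.3, 10.3 and 11.8 CPM to 21.4, 20.3 and 24.0 CPM (edgeR adjusted p = 6.78e-06), Fbxo40 rose by 0.83 on the log2 scale (edgeR adjusted p = 0.00167), and Fbxo32 moved by 0.69 (edgeR adjusted p = 0.0147), a call lost without control 1, control 3 or loaded 2. Their rise came beside that of the skeletal muscle markers, whose summed level was 9177 ± 56.4 CPM (SD, n = 3) without loading and 21666 ± 476 CPM (SD, n = 3) with it, and the part of muscle RNA in it was not tested.

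Promoter windows from RefSeq (assembly GRCr8) were matched for 32 of 37 members and cover the 250 bases before the annotated start. They are shown because Nfe2l1 and Nfe2l2 bind the antioxidant response element, here searched as TGACNNNGC on both strands beside the NF-Y motif CCAAT and the ETS motif CCGGAAGT. The antioxidant element was found in 6 of 32 member windows (18.8%), against 10.1% of all 33469 windows. CCAAT was in 17 of 32 (53.1%, against 34.0%) and CCGGAAGT in 5 of 32 (15.6%, against 3.10%). These counts include a CCAAT match of Psmc3ip, which is no subunit, and a CCGGAAGT match of Psma8, which was close to absent here. The antioxidant element was in the windows of Psma3, Psmb2, Psmb5, Psmb6, Psmd1 and Psmd9, whose log2 fold changes were 0.25, -0.10, -0.06, -0.21, -0.05 and -0.14. Those 6 span a rise, a fall and 4 members that were not called. The windows below belong to the largest falls and rises of each particle, with Psmb5 added for its element at a catalytic subunit. Capitals mark any match to the 3 motifs, and sequences read 5′ to 3′ on the gene's strand.
Psma2, chr17:55260442-55260691, minus strand: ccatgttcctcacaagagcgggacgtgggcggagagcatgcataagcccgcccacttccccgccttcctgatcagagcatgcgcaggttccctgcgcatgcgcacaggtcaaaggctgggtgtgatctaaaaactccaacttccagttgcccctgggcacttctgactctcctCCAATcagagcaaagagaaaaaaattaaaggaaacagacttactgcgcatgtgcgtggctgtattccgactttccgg
Psma3, chr6:95219499-95219748, plus strand: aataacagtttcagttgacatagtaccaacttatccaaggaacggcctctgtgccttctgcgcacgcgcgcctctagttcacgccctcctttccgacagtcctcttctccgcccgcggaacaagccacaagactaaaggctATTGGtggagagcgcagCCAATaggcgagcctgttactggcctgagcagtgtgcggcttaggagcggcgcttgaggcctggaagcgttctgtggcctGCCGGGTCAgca
Psmb5, chr15:32047380-32047629, minus strand: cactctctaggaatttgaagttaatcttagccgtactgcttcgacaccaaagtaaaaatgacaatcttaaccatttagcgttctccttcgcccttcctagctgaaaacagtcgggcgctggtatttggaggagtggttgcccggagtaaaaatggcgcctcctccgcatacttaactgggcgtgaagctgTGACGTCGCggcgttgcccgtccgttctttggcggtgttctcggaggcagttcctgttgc
Psmd2, chr11:93763389-93763638, minus strand: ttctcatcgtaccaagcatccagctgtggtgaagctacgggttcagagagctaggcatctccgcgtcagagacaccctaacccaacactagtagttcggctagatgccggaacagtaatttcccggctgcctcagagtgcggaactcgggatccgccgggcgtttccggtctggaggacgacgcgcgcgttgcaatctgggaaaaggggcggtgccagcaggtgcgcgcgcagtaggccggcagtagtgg
Psmc6, chr15:21022064-21022313, plus strand: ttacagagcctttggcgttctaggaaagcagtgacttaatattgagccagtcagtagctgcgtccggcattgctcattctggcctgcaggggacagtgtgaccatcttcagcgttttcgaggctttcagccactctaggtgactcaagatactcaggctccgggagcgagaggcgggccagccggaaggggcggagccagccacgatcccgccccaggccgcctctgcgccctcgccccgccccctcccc
A match is a run of letters and no evidence of binding, and Psma2, Psmd2 and Psmc6 lack the antioxidant element in these 250 bases only.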

How the data were processed

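Libraries were made with an mRNA kit from TRIzol-extracted RNA, per the labels' protocols. The deposited table holds raw read counts per gene, which the authors left unnormalised, and FPKM values that the authors computed per library, per the file headers. It also holds the authors' own DESeq2 comparison. HISAT2, DESeq2 and the build mm10 appear in the submitters' processing notes, although identifiers are rat Ensembl, so the aligned build is uncertain. Which tool counted the reads, with which annotation and strand setting, is not given in the sources used here, and reads of antisense genes or of the 35 pseudogenes that RefSeq lists for 15 members may be shared.

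Of 26991 lines, 10 spilled annotation pieces were dropped. Counts were analysed with edgeR 4.0.16 (R 4.3.3), and filterByExpr kept 16447 genes. TMM factors were 0.961 to 0.992 in control and 1.003 to 1.05 in loaded libraries, so they did not overlap between groups. The groups were compared with the quasi-likelihood F test (robust fit), with Benjamini-Hochberg adjustment over all genes tested and a threshold of 0.05. CPM values use TMM-scaled totals, SE is the log2 fold change over the square root of F, and a 95% interval assumes normal error. With 3 libraries a group no exact permutation p can fall below 0.1, so none is given. The pipeline was tested on simulated counts, with 50 changed genes at each fold among 16447, drawn from those of mean count at least 50. It called 18% of 1.25-fold, 64% of 1.5-fold, 70% of 2-fold and 96% of 4-fold changes in the right direction. Far fewer genes changed there than the 35.8% called in the data, and tested members had 124 to 16416 counts per library. These rates are therefore not the recovery rates of the members. A member that was not called may still have changed by an amount within its 95% interval. Alternatives were 4 other scalings, 2 filters, DESeq2 1.42.0, voom (limma 3.58.1), a replicate block, each library left out, and a threshold of 0.01.

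The members and gene lists were chosen with earlier results of these data known. Of 166 listed symbols 158 matched, 1 by an older symbol. Named were the catalytic subunits, up to 4 called members per role and direction, the largest change per role, paralog forms, up to 3 called genes per related list, and Psmb8, Psmb9, Psmb10, Nfe2l1 and Nfe2l2 whatever their result. Other members are named to account for all of them. Ube3c and the uncalled genes of some related lists are named beyond this rule. Rps27a has 2 rows, kept by identifier. A gene of the related lists is counted in their totals but not reported by name here.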

Additional observations from a re-analysis of the deposited data

How the results depend on the processing

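Library totals in place of TMM moved the members that fell from 14 to 8, core falls from 9 to 5, regulatory falls from 5 to 3, core rises from 1 to 2 and related falls from 10 to 6, and the medians of all, core and regulatory members from -0.10, -0.17 and -0.08 to -0.030, -0.095 and -0.0057. The same change of scaling moved the median of all genes tested from 0.0039 to 0.079. At a threshold of 0.01 related falls numbered 6. Leaving out each library in turn gave 10 to 14 member falls (13 to 17 calls in all), 6 to 10 related falls and a regulatory median of -0.11 to -0.064. Without control 1 related falls numbered 6. The other alternatives (other scalings, filters, DESeq2, voom) left these counts within 1.5 times, and no called gene changed sign. Same-numbered libraries did not deviate together (r -0.0139 to 0.0462). With 3 libraries a group this cannot exclude pairing, and the labels do not say whether the numbers pair libraries. The fit with the replicate block gave 12 member falls and 3 rises. The 8 falls that passed in every fit were Psmd2, Psma2, Psma5, Psmc3, Psmd8, Psmb1, Psmb4 and Psma6, and the 3 rises were Psma3l, Psmd6 and Psmc6. Psmb6 lost its call in 8 of 15 fits, Psma1 and Psmd13 in 7 and Psmb7 in 6.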
